A study of Mus musculus with 2 samples.

Results

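The genes described here are 10 members of the ubiquitin system that have been tied to T cell anergy: Cbl, Cblb, Rnf128, Itch, Nedd4, Nedd4l, Ndfip1, Ndfip2, Peli1 and Traf6. They were taken by symbol from a matrix of 54532 gene rows, and each symbol had 1 row. All 10 had a summed count of at least 20 over both libraries, the minimum used here for a measured gene, which 13902 rows met. The study sequenced the RNA of CD4+ BDC-2.5 effector T cells (Teff), which carry a transgenic T cell receptor against a pancreatic beta cell antigen. The cells had been activated and then transferred into NOD.scid mice, a diabetes-prone strain whose scid mutation leaves it without T and B cells of its own. In the first group, the recipients had an intravenous dose of 1.75 mg of 2.5HIP-PLG on day 1 after transfer. 2.5HIP-PLG is a poly(lactide-co-glycolide) nanoparticle that carries the hybrid insulin peptide recognised by this receptor. In the other group the recipients were untreated by the treatment label, and the sample description calls them controls. The protocol text given for both samples describes the nanoparticle injection, so the groups rest on that label and description. Cells of both groups were sorted from spleen and lymph nodes on day 6 after transfer as CD4-positive and negative for the green fluorescent reporter of Foxp3. Cells from 4 mice were pooled into the 1 library of each group, so differences between mice are averaged within a library and cannot be seen. The library of the first group is called the 2.5HIP-PLG or treated library below. No source used here gives the ages of the mice. Each group has 1 library, so differences have no check against replicates and are given without p-values.

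Anergy is a state in which a T cell that has met its antigen without full costimulation stays alive but responds poorly when it meets the antigen again. E3 ubiquitin ligases contribute to it by attaching ubiquitin to proteins of T cell receptor signalling, which sends them to degradation or changes their partners. RING-type ligases pass ubiquitin straight from the conjugating (E2) enzyme to the substrate, whereas HECT-type ligases first take it onto a cysteine of their own. Transcription factors of the NFAT and Egr families are known to raise several of these ligases in cells made anergic.

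The counts summed to 22580648 in the treated library and 26036623 in the untreated one, and every ratio below is 2.5HIP-PLG over untreated after scaling by these totals. The 95% interval beside a ratio is exact for counting error and holds no other error. A gene was called higher where the ratio was at least 1.5 and the interval lay above 1, and lower where the ratio was at most 0.667 and the interval lay below 1. Of all measured genes, 5.15% were called higher and 9.7% lower (716 and 1348 genes). The defining genes of the labelled cell type were abundant. The 8 CD4 T cell genes Cd3d, Cd3e, Cd3g, Cd4, Cd5, Cd28, Lat and Lck summed to 140099 and 136828 counts, and none was called in either direction. Together they made up 0.62% of the 2.5HIP-PLG library and 0.526% of the untreated library, a ratio of 1.18. Scaled to these 8 genes instead of the library total, a setting chosen after the values were seen, 423 measured genes were called higher and 2373 lower, and the median log2 ratio of all measured genes moved from -0.01 to -0.25.

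Of the 10 genes, 2 were called higher in the 2.5HIP-PLG library (Rnf128 and Cblb), 1 lower (Nedd4), and 7 were neither, beside 5.15% of all measured genes higher, 9.7% lower and 14.8% in either direction. The median log2 ratio of the 10 genes was 0.01, beside -0.01 over all measured genes, with a range from -1.24 to 1.85. The 10 genes summed to 23607 counts in the treated library and 23909 in the untreated one. Scaled by the library totals, these sums were 1045 and 918.3 counts per 1000000.

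**Figure D1:**
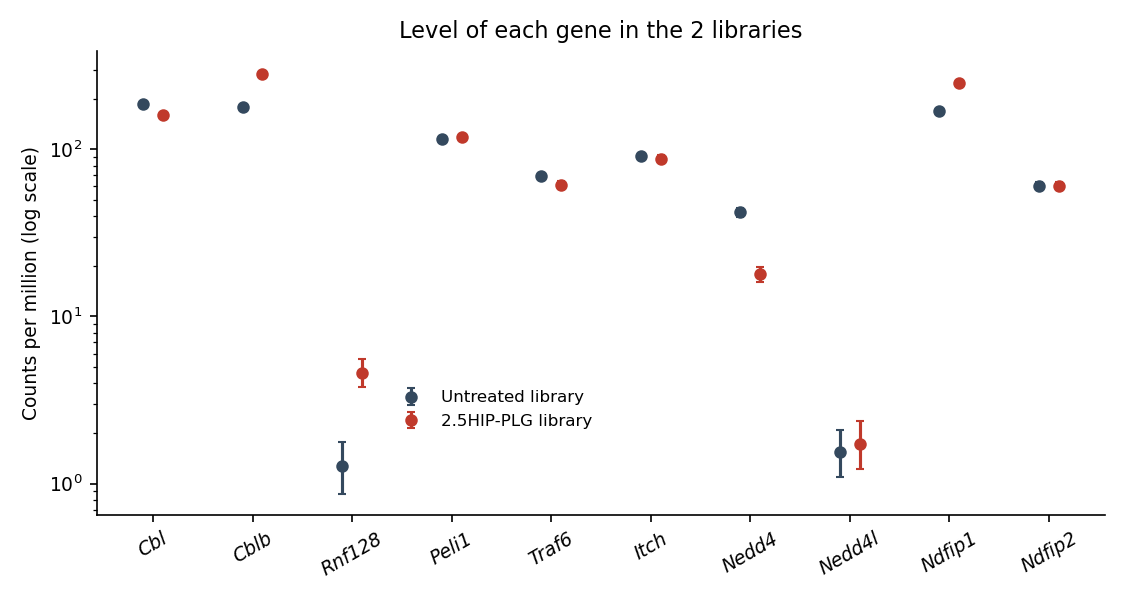
Level of each of the 10 genes as counts per 1000000 (log axis) in the untreated and the 2.5HIP-PLG library. Points are the single libraries and bars are exact 95% Poisson intervals, which cover counting error only. Rnf128 and Nedd4l lie below 5 counts per 1000000 in both libraries, and the bars of Cblb, Rnf128, Ndfip1 and Nedd4 do not overlap between the libraries, nor do those of Cbl and Traf6.

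Levels were compared between genes as RPKM, the counts per 1000000 (CPM, counts scaled to the library total) per kilobase of merged exons. Ndfip1 had the highest level in both libraries, with 39.6 RPKM in the treated library and 26.9 in the untreated one. Cblb stood at 27.1 and 17.2 RPKM, and Peli1 at 18.0 and 17.6 RPKM. The Poisson intervals of Cblb (16.7 to 17.7) and Peli1 (17.0 to 18.3) overlapped in the untreated library but not in the 2.5HIP-PLG library (26.4 to 27.8 and 17.3 to 18.7). Cbl followed at 13.0 and 15.0 RPKM, Itch at 9.05 and 9.45, Traf6 at 7.73 and 8.80, and Ndfip2 at 5.24 and 5.25. Nedd4 (1.63 and 3.83 RPKM), Rnf128 (1.33 and 0.366) and Nedd4l (0.0978 and 0.0870) were the lowest, and in the 2.5HIP-PLG library the intervals of Nedd4 (1.47 to 1.79) and Rnf128 (1.09 to 1.61) overlapped. The order was the same in both libraries except that Cblb and Peli1 changed places. Divided by the longest transcript instead, 8 of the 10 genes kept their place in each library, and Cbl and Itch changed places.

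Cblb encodes Cbl-b, a RING-type ligase that acts on signalling proteins below the T cell receptor and makes T cell activation depend on the costimulatory receptor CD28. The gene lies at chr16:52031225-52208048 (plus strand, GRCm38). It had 6408 counts in the treated library and 4687 in the untreated one, which is 283.8 against 180.02 CPM. The Poisson intervals of these levels, 276.9 to 290.8 CPM and 174.9 to 185.2 CPM, did not overlap. The ratio was 1.58 (95% interval 1.52 to 1.64), so Cblb passed the size rule by a small margin. Among the 1008 measured genes with a summed count of 10000 or more, the class to which Cblb belongs, 2.68% were called higher. Scaled to the 8 CD4 T cell genes, the ratio was 1.34 (1.29 to 1.39) and the call was lost.

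Cbl encodes c-Cbl, the closest relative of Cbl-b, best known in T cells for restraining receptor signalling in the thymus. It lies at chr9:44142976-44234049 on the minus strand. Cbl had 3611 counts in the treated library and 4835 in the untreated one, or 159.9 and 185.7 CPM. Its ratio was 0.861 (0.825 to 0.899), an interval below 1 with a size short of the rule. Cbl and Cblb thus lay on opposite sides of 1. The 2 genes together had a ratio of 1.21 (1.18 to 1.25). Cblb made up 49.2% of their summed counts in the untreated library (exact binomial interval 48.2 to 50.2) and 64.0% in the 2.5HIP-PLG library (63.0 to 64.9), a comparison within each library that needs no scaling between them. Per length of exon, the share of Cblb was 53.3% and 67.7% in the same order. The third gene of the family, Cblc, had 0 counts in both libraries.

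Rnf128 encodes GRAIL (gene related to anergy in lymphocytes), a RING-type ligase anchored in endosomal membranes that was found through its expression in anergic CD4 T cells. It lies at chrX:139563316-139673145 on the plus strand. Rnf128 had 104 counts in the treated library and 33 in the untreated one, or 4.61 and 1.27 CPM. The intervals of these levels, 3.76 to 5.58 CPM and 0.872 to 1.78 CPM, did not overlap. The ratio was 3.63 (2.44 to 5.55), the largest of the 10 genes, and 122 of the 13902 measured genes had a higher log2 ratio. Among genes with a summed count of 100 to under 1000, 6.95% were called higher. The level was low in both libraries. Of the measured genes, 29.0% had a lower count than Rnf128 in the treated library and 14.3% in the untreated one. Scaled to the 8 CD4 T cell genes the ratio was 3.08 (2.06 to 4.70), still a call.

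Because the level of Rnf128 was low, markers of other cell types are given beside it. In bulk RNA, fewer cells of a type and less RNA per cell cannot be told apart. For comparison, 5.15% of all measured genes were called higher and 9.7% lower. Among those with a summed count of 20 to under 100, the shares were 8.66% and 21.4%. Of 6 measured regulatory T cell genes, 4 were higher (Foxp3, Ikzf2, Gpr83 and Itgb8), and the list of 7 summed to 228.9 CPM in the treated library and 164.9 in the untreated one. Gpr83 (34 and 17 counts) and Itgb8 (37 and 6) had few reads. Il2ra went the other way, with 812 and 1358 counts (0.6895, 0.631 to 0.753), just short of a lower call. Tnfrsf18 was neither, at 1.17 (1.10 to 1.25). Foxp3, whose reporter was used to leave such cells out, had 1157 and 389 counts, estimates that were not whole. Its ratio was 3.43 (3.055 to 3.857). Of 4 measured mast cell and basophil genes 3 were higher, and the list of 5 summed to 17.0 and 3.76 CPM. Neutrophil genes had 2 of 3 higher and summed to 13.4 and 3.61 CPM, macrophage and monocyte genes 2 of 5 higher (13.8 and 9.87 CPM), and stromal and endothelial genes 2 of 4 higher (131.0 and 101.2 CPM, most of it Pecam1). Of 3 measured epithelial genes 1 was higher and 2 were lower (4.16 and 16.5 CPM in sum), with Krt8 at 0 in both libraries. Of 5 NK cell genes 3 were lower and 1 higher, and the list summed to 128.2 and 631.1 CPM, most of it Gzma, which effector T cells also express. Dendritic cell genes had 1 of 6 lower (64.6 and 89.9 CPM), and erythroid genes none of 5 called (43.3 and 44.4 CPM). Plasma cell genes had 1 of 3 lower (105.0 and 101.5 CPM, nearly all of it Xbp1 and Prdm1, with Jchain at 0 in both). The 6 B cell genes summed to 0.354 and 0.922 CPM, with Ms4a1 at 0 in both libraries and none measured. Of the CD8 genes, Cd8b1 (304 and 272 counts) was neither and Cd8a (0 and 9) was not measured. The part of these cells in the Rnf128, Cblb and Nedd4 differences was not tested.

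The promoters of the gene with the largest ratio and of the gene called lower are shown for comparison, as the 250 bases before the start in the RefSeq table (GRCm38.p6), which holds 7 of the 10 genes. Capitals mark matches, on either strand, to the NFAT core GGAAA, the AP-1 letters TGANTCA, the Egr letters GCGNGGGCG, the NF-kappaB letters GGGNNTTCC, the FoxO letters TGTTTAC or the E-box CACGTG.
Rnf128, chrX:139610370-139610619, plus strand: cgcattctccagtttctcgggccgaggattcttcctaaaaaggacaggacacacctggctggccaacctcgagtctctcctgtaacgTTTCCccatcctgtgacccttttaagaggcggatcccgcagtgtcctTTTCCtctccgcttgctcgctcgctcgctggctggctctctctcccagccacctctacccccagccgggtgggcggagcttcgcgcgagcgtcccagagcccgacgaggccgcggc
Nedd4, chr9:72662081-72662330, plus strand: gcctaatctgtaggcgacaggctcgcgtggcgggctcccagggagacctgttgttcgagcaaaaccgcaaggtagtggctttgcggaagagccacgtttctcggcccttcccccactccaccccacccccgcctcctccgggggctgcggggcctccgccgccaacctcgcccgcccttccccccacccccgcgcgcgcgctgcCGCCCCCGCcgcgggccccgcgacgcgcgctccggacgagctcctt
The Rnf128 window lies inside the annotated span of the gene, which has 3 annotated transcripts. It holds 2 matches to the NFAT core, read on the opposite strand as TTTCC, which end 159 and 112 bases before the start, and none to the other marked letters. The Nedd4 window holds 1 match to the Egr letters, read on the opposite strand, from 46 to 38 bases before the start, which overlaps 1 match to the GC box letters GGGCGG, and none to the NFAT core. Of 32851 RefSeq promoter windows of the same length, 55.6% hold the NFAT core, 4.7% the Egr letters, 4.98% the NF-kappaB letters, 6.75% the AP-1 letters, 3.17% the FoxO letters and 6.02% the E-box. These shares are not matched for base content, and the Egr letters are nearly all G and C. The Nedd4 window shown is 74.0% G and C, the Cbl window 71.6% and the Rnf128 window 63.2%. The Cblb window (chr16:52031299-52031548), which also lies inside the annotated span of its gene, holds 2 matches to the NFAT core and 1 to the NF-kappaB letters. The Cbl window holds 3 matches to the NFAT core and 1 to the Egr letters, and the Ndfip2 window holds 2 to the NFAT core. The windows of Peli1 and Traf6 hold none of the marked letters. Nedd4 has a further RefSeq start (window chr9:72693048-72693297), with 2 matches to the NFAT core and 1 to AP-1. These are matches of letters, and no binding was measured.

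Nedd4, the HECT-type ligase that gives the Nedd4 family its name, was the 1 member called lower. It is known to promote T cell activation by sending Cbl-b to degradation. The gene lies at chr9:72662346-72749852 on the plus strand. Nedd4 had 403 counts in the treated library and 1095 in the untreated one, or 17.8 and 42.1 CPM. The intervals of these levels, 16.1 to 19.7 CPM and 39.6 to 44.6 CPM, did not overlap. It was 2.36-fold lower after 2.5HIP-PLG (2.10 to 2.65), and 594 of the measured genes had a lower log2 ratio. Among 6014 measured genes with a summed count of 1000 to under 10000, the class of Nedd4, 2.81% were called lower. The 4 other genes annotated within its span, all on the same strand, had 3 and 10 counts in all in the 2 libraries. Scaled to the 8 CD4 T cell genes, the Nedd4 ratio was 0.359 (0.320 to 0.403).

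Itch encodes a HECT-type ligase of the same family that degrades JunB and signalling enzymes of the receptor pathway, and its loss in mice leads to allergic, Th2-type inflammation. It lies at chr2:155133509-155226855. Itch had 1985 counts in the treated library and 2388 in the untreated one, or 87.9 and 91.7 CPM, and the intervals of these levels overlapped. The ratio of 0.958 (0.903 to 1.02) had an interval that holds 1. Of the summed counts of Itch and Nedd4, Itch made up 68.6% in the untreated library (67.0 to 70.1) and 83.1% in the 2.5HIP-PLG library (81.6 to 84.6). The balance of these relatives therefore differed between the libraries beyond counting error, with Itch the more abundant in both.

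Nedd4l encodes Nedd4-2, the close relative of Nedd4 best known for control of the epithelial sodium channel. It lies at chr18:64887705-65217828. Nedd4l had 39 counts in the treated library and 40 in the untreated one, or 1.73 and 1.54 CPM. The ratio of 1.12 had a wide interval (0.704 to 1.79), so a difference of 1.5-fold upwards could not be seen or set aside at this depth. Itch, Nedd4 and Nedd4l together had a ratio of 0.794 (0.754 to 0.837).

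Ndfip1 and Ndfip2 encode membrane adaptors that bind HECT-type ligases of the Nedd4 family through short proline and tyrosine motifs and relieve their autoinhibition. Mice without Ndfip1 develop T cell driven inflammation much like those without Itch. Ndfip1 lies at chr18:38410396-38465303. It had 5654 counts in the treated library and 4436 in the untreated one, or 250.4 and 170.4 CPM. The intervals of these levels, 243.9 to 257.0 CPM and 165.4 to 175.5 CPM, did not overlap. The ratio was 1.47 (1.41 to 1.53), just short of the size rule, and it lay between 1.46 and 1.48 under the other library scalings. Scaled to the 8 CD4 T cell genes it was 1.25 (1.20 to 1.30). Ndfip2 (chr14:105258573-105309298) had 1366 and 1579 counts after rounding of estimates that were not whole, or 60.5 and 60.6 CPM. Its ratio was 0.998 (0.927 to 1.07), and 0.845 (0.785 to 0.909) when scaled to the 8 CD4 T cell genes. Ndfip1 made up 73.7% of the summed counts of both adaptors in the untreated library (72.6 to 74.9) and 80.5% in the 2.5HIP-PLG library (79.6 to 81.5). The sum of both had a ratio of 1.35 (1.30 to 1.39).

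**Figure D2:**
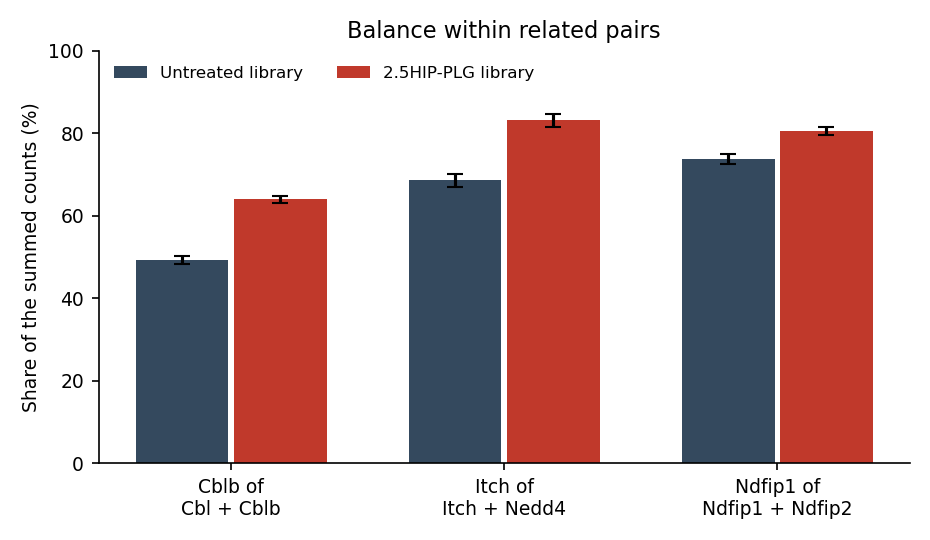
Share of Cblb in the summed counts of Cbl and Cblb, of Itch in Itch and Nedd4, and of Ndfip1 in Ndfip1 and Ndfip2, in percent, for the untreated and the 2.5HIP-PLG library. Bars are single libraries and error bars are exact 95% binomial intervals. In each pair the share is larger in the 2.5HIP-PLG library, from 49.2% to 64.0%, from 68.6% to 83.1% and from 73.7% to 80.5%. The gene shown is the one of its pair with the larger ratio, so the common direction is no separate result. Itch itself had a ratio of 0.958, and its larger share goes with the lower Nedd4 count.

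Peli1 and Traf6 encode ligases of NF-kappaB signalling. Peli1 (chr11:21091291-21150323) encodes a RING-like Pellino ligase that targets the subunit c-Rel and restrains T cell activation. It had 2661 counts in the treated library and 3010 in the untreated one, or 117.8 and 115.6 CPM, with overlapping intervals. The ratio of 1.02 (0.967 to 1.07) had an interval that holds 1. Traf6 (chr2:101678429-101701669) encodes a RING-type ligase of signalling from Toll-like and interleukin 1 receptors, and its loss in T cells leads to inflammation in several organs. It had 1376 and 1806 counts, or 60.9 and 69.4 CPM. The ratio was 0.879 (0.818 to 0.943), with an interval below 1 and a size short of the rule. Scaled to the 8 CD4 T cell genes, Peli1 had a ratio of 0.863 (0.819 to 0.910) and Traf6 of 0.744 (0.693 to 0.799).

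**Figure D3:**
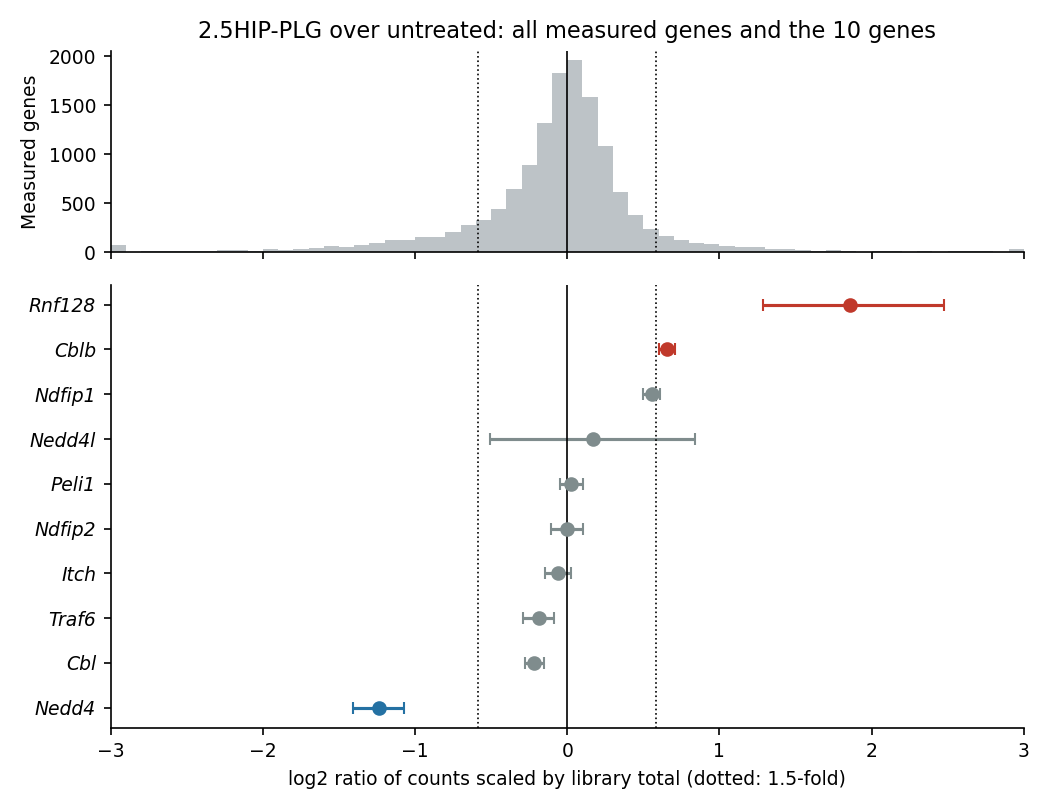
Upper panel, histogram of the log2 ratio (2.5HIP-PLG over untreated, 0.5 counts added) of the 13902 measured genes, with values beyond 3 in either direction placed in the end bars. Lower panel, log2 ratio of each of the 10 genes with exact 95% intervals, called higher in red and lower in blue, and dotted lines at 1.5-fold. Rnf128, at 3.63-fold, and Nedd4, at 2.36-fold lower, lie in the tails of the distribution, while Cblb lies just past the dotted line and Ndfip1 just before it.

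Across the 10 genes, 3 intervals lay above 1 (Rnf128, Cblb and Ndfip1), 3 below 1 (Nedd4, Cbl and Traf6), and 4 held 1 (Nedd4l, Peli1, Ndfip2 and Itch). Of the 5 RING-type or RING-like ligases (Cbl, Cblb, Rnf128, Peli1 and Traf6), 2 were higher and 3 neither. Of the 3 HECT-type ligases, 1 was lower and 2 neither, and both adaptors were neither. Of all measured genes, 5.15% were higher and 9.7% lower. The calls by class rest on Cblb, Rnf128 and Nedd4 alone, and a difference between the classes was not tested.

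Genes around these 10 in the ubiquitin system were called in both directions. Among 343 measured genes in 12 pathway lists and 5 symbol families, with the 10 genes left out, 12 (3.5%) were higher and 17 (4.96%) lower, beside 5.15% and 9.7% of all measured genes. Of these, 218 had a summed count of 1000 to under 10000, where 6 (2.75%) were higher and 4 (1.83%) lower, near the 2.71% and 2.81% of all measured genes in that class. In the other Nedd4 family HECT list, none of 4 measured genes was called, with ratios from 0.706 for Smurf1 to 1.10 for Wwp2, and a median log2 ratio of -0.21. Of 18 further HECT ligases only Herc3 was called, lower at 0.610 (0.567 to 0.655). None of 6 measured Pellino and TRAF genes and none of 25 ubiquitin, E1 and E2 genes was called. Peli2 had 0 and 1 counts and Peli3 had 2 and 8, so Peli1 was the Pellino gene measured in these cells.

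Of 9 measured Cbl partners, 1 was called, higher. Ubash3b encodes Sts-1, a phosphatase that binds Cbl proteins and dampens receptor signalling. It had 1803 counts in the treated library and 842 in the untreated one, a ratio of 2.47 (2.27 to 2.68). Its relative Ubash3a had 3834 and 4563 counts, a ratio of 0.969 (0.928 to 1.01). The other 7 measured partners, among them the adaptors Sh3kbp1 and Grb2, were neither.

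Relatives of GRAIL with the same membrane-anchored RING layout were not called higher. Of 7 measured genes, 2 were lower and none higher, and the median log2 ratio was -0.38. Znrf3, a ligase that removes Wnt receptors from the membrane, had 122 and 439 counts, a ratio of 0.320 (0.260 to 0.393). Rnf150 had 11 and 29 counts (0.437, 0.197 to 0.902), with estimates that were not whole. Among 19 measured other ligases of T cell tolerance, only Asb2 was called, lower at 0.649 (0.597 to 0.704). Of 18 deubiquitinases of T cell signalling, only Tnfaip3 was called. It encodes A20, an inhibitor of NF-kappaB signalling, and had 5107 counts in the treated library and 11534 in the untreated one, a ratio of 0.511 (0.494 to 0.528).

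Genes listed as reported substrates or partners were called in both directions. Of 13 listed for the Cbl proteins, 2 were higher. These were the kinase gene Fyn, with 20318 and 14946 counts (1.57, 1.54 to 1.60), and Nfatc1, which encodes an NFAT factor, with 15800 and 8931 (2.04, 1.99 to 2.09). Of 13 measured genes listed for Itch and Nedd4, 2 were higher (Egr2 at 8.38, 7.27 to 9.69, and Batf at 1.599, 1.49 to 1.71) and 2 lower, among them Jun at 0.550 (0.530 to 0.571). Estimates of Jun were not whole. Of 11 listed for GRAIL, the tetraspanin gene Cd81 was higher, with 1042 and 610 counts (1.97, 1.78 to 2.18), and Cd40lg, the ligand by which helper T cells signal to CD40, was lower with 1218 and 2174 (0.646, 0.602 to 0.693). Of 16 partners listed for Peli1 and Traf6, 1 was called, Rel, the c-Rel gene, higher with 1682 and 1145 counts (1.69, 1.57 to 1.83). Since ubiquitin ligases act on proteins, these RNA counts do not measure the action of any ligase.

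**Figure D4:**
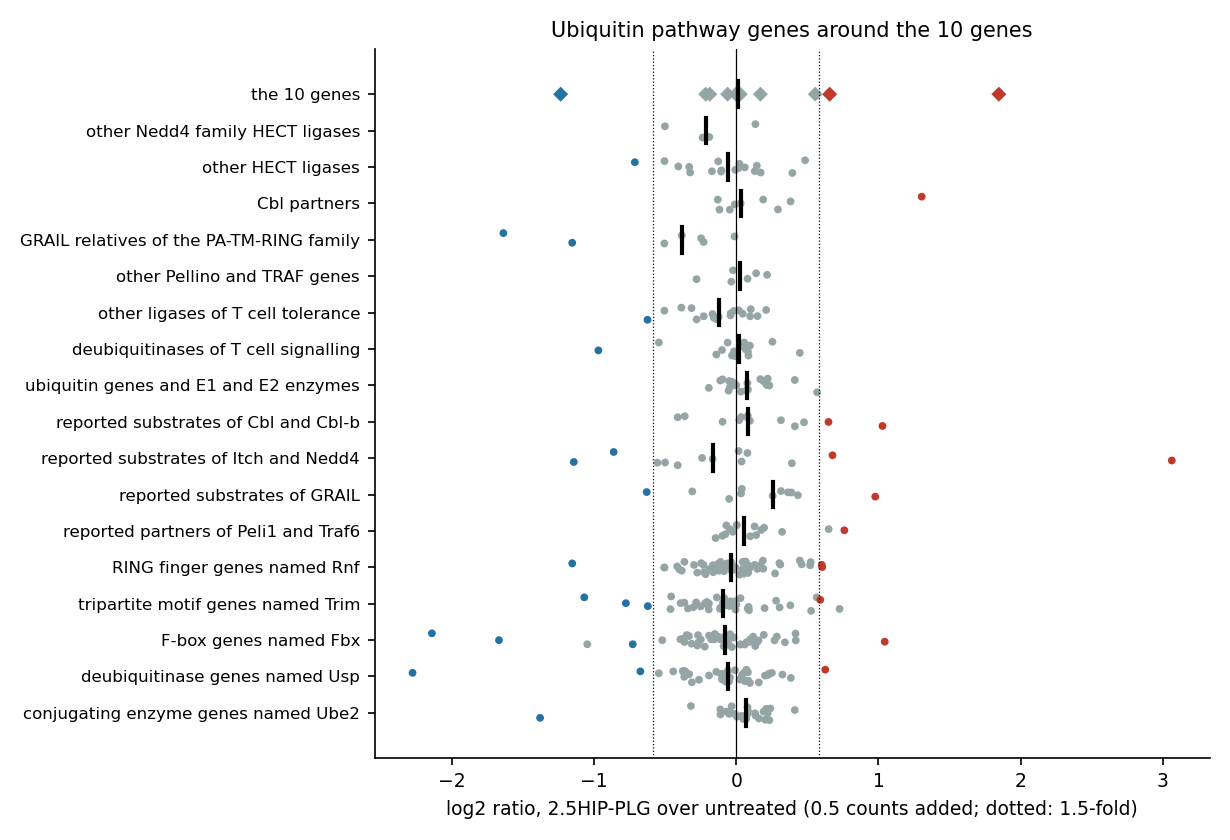
Log2 ratio (2.5HIP-PLG over untreated, 0.5 counts added) of each measured gene in the 12 pathway lists and 5 symbol families, with the 10 genes as diamonds in the top row and left out of the other rows. Red marks genes called higher, blue genes called lower and grey neither, black ticks are medians, and dotted lines are at 1.5-fold. Most points lie between the dotted lines, and the farthest to the right is Egr2 at 3.06.

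With 2 libraries, the likeness of a gene's pattern to another comes down to 1 ratio each. Among the called genes of these lists, the nearest in log2 ratio to Cblb (0.66) were Fyn (0.65) and Batf (0.68). The nearest to Nedd4 (-1.24) was Rnf150 (-1.15). Rnf128 (1.85) had no close neighbour among them, the nearest being Ubash3b (1.30) and Fbxo41 (1.04), which had 29 and 16 counts. The marker lists were not part of this search, and some called marker genes lay nearer to Rnf128, such as Foxp3 (1.78).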

How the data were processed

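RNA was extracted with a column kit (RNeasy Plus) and made into mRNA libraries with a NuGen kit, per the labels' protocols. The submitters' processing notes name STAR and RSEM 1.3.1 and the genome build GRCm38. For the annotation, the STAR version and the strand setting, nothing was given in the sources used here. The authors deposited expected counts, the reads per gene as estimated upstream, unscaled between libraries. Of the measured genes, 63.3% had whole estimates in both libraries. Among the 10 genes only Ndfip2 did not. Without the strand setting, reads of genes that overlap, antisense ones included, cannot be separated. For each of the 10 genes, the annotated genes that overlap it summed to at most 10 counts in a library.

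Counts were rounded, and ratios were taken after scaling by the library total, with exact conditional binomial (Clopper-Pearson) 95% intervals in Python 3.11.15 with scipy 1.17.1. No molecular identifiers are described, so intervals cover counting error only. At 1 count, a gene had 0.0443 CPM in the treated library and 0.0384 in the untreated one. Log2 ratios had 0.5 counts added. Scaling factors of the alternatives came from edgeR 4.0.16 and DESeq2 1.42.0 in R 4.3.3. No test of either tool was run, since 1 library per group leaves no residual degrees of freedom. Exon lengths and positions were read from GENCODE M21 (GRCm38), where 54409 of the 54532 row IDs were found. The calling steps were tested on simulated counts. Figures were drawn with matplotlib 3.10.9.

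The 10 genes, the pathway lists and the marker lists were chosen with earlier results of these data known, so no count over them is independent evidence. The genes named were all 10, up to 2 genes per direction and list with the interval bound farthest from 1 among those called, and, for each of the 10 that was called, the 2 called list genes nearest to it in log2 ratio. Smurf1, Wwp2, Ubash3a, Cblc, Peli2, Peli3, Sh3kbp1 and Grb2 were named after their values were seen. The values of 1 gene that this rule names are not reported here. Alternatives were other library scalings, count minimums, folds, intervals, added counts and unrounded counts.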

Additional observations from a re-analysis of the deposited data

How the results depend on the processing

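Under the TMM, upper quartile and DESeq2 scalings, 2 counts added and unrounded counts, the ratio of each of the 10 genes stayed within its main interval, 50 of 50 values, and under the scalings and unrounded counts no call changed. These scalings lay close to the library total and could move a ratio little. Under them the median log2 ratio of all measured genes was between -0.024 and 0.0038. The median log2 ratio of the 10 genes lay between -0.0035 and 0.03 under the other listed settings, and -0.23 when scaled to the 8 CD4 T cell genes. That scaling, chosen after seeing the data, left 1 of the 10 genes higher (Rnf128) and 1 lower, with 423 measured genes higher and 2373 lower, and 4 list genes higher and 42 lower. Of the 10 genes, only Rnf128 and Nedd4l then kept a ratio within the main interval. With a fold of 2, 1 of the 10 genes was higher, as were 387 measured and 4 list genes, and 808 measured and 8 list genes were lower. With a count sum of at least 100, 473 measured genes were higher and 748 lower, as fewer genes were measured, and Nedd4l was left out. No paired analysis was possible because each group has 1 library, and for the same reason no replicate could be left out. Depth limits Nedd4l and Rnf128 most.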

Other observations

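Beyond the pathway lists, the larger gene families of the ubiquitin system, taken by symbol, held calls in both directions, with 5.15% of all measured genes called higher and 9.7% lower. Of 58 measured RING finger genes named Rnf, 3 were higher and 1 lower. The higher genes were Rnf128 itself, Rnf2, the ligase of Polycomb complexes that marks histone H2A, with 1518 counts in the treated library and 1154 in the untreated one (1.52, 1.40 to 1.64, with estimates that were not whole), and Rnf135 (1.52, 1.26 to 1.85), named after its value was seen. Of 39 measured tripartite motif genes, 1 was higher, Trim68 at 1.51 (1.14 to 2.003), and 3 were lower, among them Trim36 at 0.583 (0.473 to 0.716) and Trim3 at 0.649 (0.553 to 0.761).

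Of 53 measured F-box genes, 1 was higher, Fbxo41 with 29 and 16 counts, and 3 were lower, among them Fbxl22 with 11 and 58 counts and Fbxo27 with 16 and 60. Of 44 measured deubiquitinase genes named Usp, Usp54 was higher at 1.54 (1.33 to 1.80), with estimates that were not whole, and 2 were lower. Usp48 was the lower gene with the most reads, 4044 counts in the treated library and 7443 in the untreated one (0.627, 0.603 to 0.651). Usp44 rested on 8 and 47 counts (0.196, 0.0801 to 0.419). Of 31 measured conjugating enzyme genes named Ube2, 1 was lower, Ube2e2 with 11 and 34 counts.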
